A study of Homo sapiens with 2 samples.

Results

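The genes described here are the activin subunits INHBA and INHBB, the follistatin family members FST, FSTL1 and FSTL3, the activin receptors ACVR1, ACVR1B, ACVR2A and ACVR2B, and the co-receptor TGFBR3, 10 of the 19775 genes that could be read on the arrays. They were chosen by name, with it already known from these same 2 arrays that INHBA and FST differ strongly, so their differences are given as a description. Every probe set that the platform annotation assigns to 1 of these genes alone was taken, which gave 25 probe sets. HCC4006ER cells are erlotinib-resistant non-small cell lung cancer (NSCLC) cells, labelled with an epithelial-mesenchymal transition (EMT) phenotype, selected out of the HCC4006 line in culture with erlotinib, an inhibitor of the EGFR kinase, at doses raised stepwise. HCC4006 cells are the erlotinib-sensitive parental line, and both lines carry an exon 19 deletion of EGFR. Both lines were grown for 48 hours in RPMI medium with serum and received no additional treatment before RNA was taken. For each line 3 RNA preparations were pooled in equal parts for a single Affymetrix HG-U133 array. HCC4006ER is the bulk resistant population and not a single cell clone.

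Activins are dimers of inhibin beta subunits that are secreted as hormones and local signals. They bind a type II receptor (ACVR2A or ACVR2B), which recruits and phosphorylates a type I receptor (ACVR1B), and the signal passes to SMAD2 and SMAD3, the transcription factors that TGF-β also uses. Follistatin binds activin outside the cell and blocks it, and its own gene is a known target of activin signalling, so that ligand and antagonist are often made by the same cells. In lung tissue and in carcinomas activin A, the dimer of the INHBA product, is known for its part in wound repair, fibrosis and EMT.

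Each cell line had 1 array of pooled RNA, so there is no replicate and no test, and precision is limited by having 2 arrays in all. Signals are MAS5 intensities on a linear scale. As a background level, the 95th percentile of 127 probe sets for olfactory and bitter taste receptors was taken on each array. That these receptors are not expressed in the cells was assumed and not tested. The level was 91.6 on the array labelled HCC4006ER and 96.2 on the array labelled HCC4006. Where only the dimmer signal lay under its level, the fold was computed against the level and is written as at least that size. Where both lay under, no fold is given. Probe sets of the same gene differed in their log2 fold with a pooled SD of 0.27 over 5264 genes, a spread that leaves out variation between arrays and cultures. Were the arrays brought to a common median, every log2 fold would be 0.14 larger. Of 10 epithelial markers, 10 were above background on both arrays, with CDH1 (E-cadherin) at 11041 on the array labelled HCC4006ER and 10469 on the array labelled HCC4006. The EMT regulator ZEB1 was under both background levels in its 4 probe sets, reading 16.6 to 53.1 on the array labelled HCC4006ER and 12.8 to 42.5 on the array labelled HCC4006. Vimentin (VIM), a mesenchymal filament protein gene, read 9057 on the array labelled HCC4006ER and 5926 on the array labelled HCC4006 (log2 fold 0.61), and the epithelial splicing regulator ESRP1 was 1.60-fold lower, at 2273 on the array labelled HCC4006ER and 3647 on the array labelled HCC4006. Of the 10 epithelial markers ESRP1 alone was past 1.5-fold, and with the arrays at a common median it no longer passed. The other 9 lay within 1.5-fold, and the median log2 fold of the 10 was -0.003. The labels give the resistant line an EMT phenotype. VIM and ESRP1 differed in the direction of that label, while CDH1, ZEB1 and the epithelial markers as a list did not show it. From its microarray the study reports ZEB1 mRNA as far higher and E-cadherin mRNA as lost in HCC4006ER cells. The deposited signals of ZEB1 and CDH1 did not show either difference, and the reason was not tested. The arrays are named by their labels. Of 9 lung lineage markers, 3 were above background on each array, and NKX2-1, which defines the lineage, was not above background on either, at 7.98 on the array labelled HCC4006ER and 65.4 on the array labelled HCC4006.

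The promoters of the 3 genes with the largest fold, INHBA, INHBB and FST, are shown first. These genes encode the βA and βB activin subunits and their antagonist, and differ in base composition. All 10 genes matched a promoter in the RefSeq table of GRCh38.p14, which holds the 250 bases before and the 50 bases after a transcript start, and the first start listed for each gene was used. Capitals mark the letters searched on both strands: CAGGTG, the E-box bound by ZEB1, CAGAC, a SMAD-binding element, TGANTCA, the AP-1 site, GGGCGG, the GC box, and TATAAA, the TATA box. The GC box and the TATA box were added to the search after the signals had been seen.
INHBA, chr7:41703041-41703340, minus strand: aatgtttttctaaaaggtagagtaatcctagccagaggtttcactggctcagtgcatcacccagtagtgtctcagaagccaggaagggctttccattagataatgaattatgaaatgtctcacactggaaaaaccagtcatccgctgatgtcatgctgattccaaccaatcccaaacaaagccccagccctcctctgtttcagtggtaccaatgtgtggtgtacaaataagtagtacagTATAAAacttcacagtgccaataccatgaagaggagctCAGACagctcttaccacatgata
INHBB, chr2:120345886-120346185, plus strand: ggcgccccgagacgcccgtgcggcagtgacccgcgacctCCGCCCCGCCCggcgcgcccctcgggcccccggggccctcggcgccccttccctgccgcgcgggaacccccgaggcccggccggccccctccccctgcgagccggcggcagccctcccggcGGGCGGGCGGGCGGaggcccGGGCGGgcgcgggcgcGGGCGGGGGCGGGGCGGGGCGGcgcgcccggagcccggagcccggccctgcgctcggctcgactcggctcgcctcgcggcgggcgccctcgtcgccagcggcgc
FST, chr5:53480379-53480678, plus strand: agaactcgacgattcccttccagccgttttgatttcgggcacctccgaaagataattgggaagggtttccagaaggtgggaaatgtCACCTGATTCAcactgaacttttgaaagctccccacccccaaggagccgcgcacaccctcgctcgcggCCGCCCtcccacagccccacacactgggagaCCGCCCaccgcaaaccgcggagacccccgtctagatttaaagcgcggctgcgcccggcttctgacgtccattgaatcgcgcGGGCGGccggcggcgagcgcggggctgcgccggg
The INHBA window had a GC content of 43.3%, that of FST 63.7% and that of INHBB 88.7%, beside a median of 58.3% over 27305 promoters. INHBA had no GC box, but TATAAA lay 11 bases before the start and CAGAC began at base 28 after it. INHBB had 10 overlapping or separate GC boxes and none of the other motifs. In FST, CACCTG (the E-box on the other strand) began 164 bases before the start and overlapped TGATTCA, an AP-1 match that began 160 bases before it. An E-box of this type was held by 1 of the 10 promoters, FST, and by 20.6% of all 27305. AP-1 letters were held by 1 of the 10 and 7.76% of all, CAGAC by 3 of the 10 and 45.0% of all, a GC box by 8 of the 10 and 44.6% of all, and TATAAA by 2 of the 10 and 12.0% of all. The palindromic SMAD element GTCTAGAC was in none of the 10 and in 0.201% of all. These matches are descriptions of letters in a window and were not tested as binding sites.

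Of the 10 genes, each read from its brightest probe set and each above background on both arrays there, 5 were higher past 1.5-fold on the array labelled HCC4006ER, 0 were lower and 5 lay within 1.5-fold. Past 1.5-fold lay 7.99% of all 11896 genes above background in the higher and 11.2% in the lower direction, shares from which nothing is read because the genes were chosen on this contrast. With the arrays at a common median the split over all genes turned to 1475 higher and 880 lower, while the 10 genes kept 5 higher and 0 lower. At 2-fold, 4 of the 10 were higher, beside 2.38% of all genes, and 0 were lower, beside 3.56%. The higher genes were the activin subunit genes INHBA and INHBB, the antagonist FST, FSTL1 and the co-receptor TGFBR3. The genes within 1.5-fold were the 4 activin receptors and FSTL3. The median log2 fold of the 10 genes was 0.31, beside -0.04 over all genes above background. In bulk RNA, a higher signal in every cell and a larger share of cells with the transcript cannot be told apart.

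**Figure D1:**
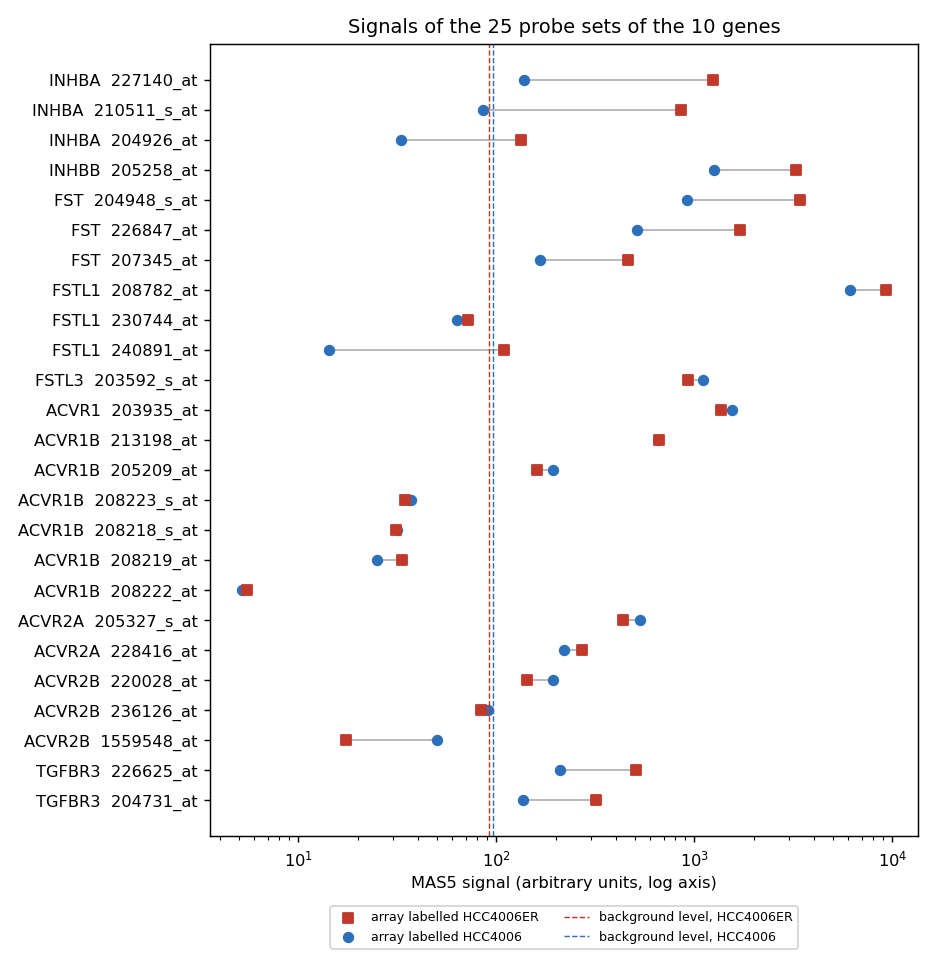
MAS5 signal on a log axis (arbitrary units) for each of the 25 probe sets of the 10 genes, with squares for the array labelled HCC4006ER and circles for the array labelled HCC4006. Dashed lines mark the background levels of 91.6 and 96.2. The squares lie right of the circles in all probe sets of INHBA, INHBB, FST and TGFBR3, and close to them in the receptor probe sets above background.

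INHBA encodes the βA subunit of activin A. Its brightest probe set, 227140_at, had a signal of 1243 on the array labelled HCC4006ER and 138 on the array labelled HCC4006, a 9.02-fold difference (log2 fold 3.17). The second probe set, 210511_s_at, read 854 on the array labelled HCC4006ER and 85.8 on the array labelled HCC4006. The latter signal lay under the background level, so this probe set was at least 8.88-fold higher. The third, 204926_at, was dimmer throughout, with 133 on the array labelled HCC4006ER and 32.9 on the array labelled HCC4006. With the dim side at the background level it was at least 1.38-fold higher, which does not pass 1.5-fold. On the array labelled HCC4006 only 1 of the 3 probe sets was above background, at 138 against a level of 96.2, so the parental signal of INHBA lay near the limit of detection. All 3 probe sets were above background on the array labelled HCC4006ER. The INHBA fold stood at rank 8 from the highest among the 11896 genes.

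INHBB, which encodes the βB subunit of activin B and of the mixed dimer activin AB, was well above background on both arrays. Its single probe set, 205258_at, read 3243 on the array labelled HCC4006ER and 1259 on the array labelled HCC4006, a 2.58-fold difference (log2 fold 1.36) at rank 129. With 1 probe set there is no second reading of this difference. The log2 fold of INHBA was 1.81 above that of INHBB in the INHBA probe set above background on both arrays. With dim signals at the background level, INHBA was above INHBB in 2 of 3 probe sets, and in the dim 204926_at, where the fold is only a lower bound, it was 0.90 below. The inhibin alpha subunit INHA, which turns beta subunits into inhibins, did not reach background, with 58.0 on the array labelled HCC4006ER and 64.6 on the array labelled HCC4006.

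FST, the gene of follistatin, was higher in each of its 3 probe sets, all above background on both arrays. Probe set 204948_s_at read 3402 on the array labelled HCC4006ER and 920 on the array labelled HCC4006, a 3.70-fold difference (log2 fold 1.89) at rank 53. Probe set 226847_at read 1704 on the array labelled HCC4006ER and 512 on the array labelled HCC4006 (3.32-fold). Probe set 207345_at read 460 on the array labelled HCC4006ER and 166 on the array labelled HCC4006 (2.76-fold). The SD of the log2 fold over the 3 probe sets was 0.21, below the pooled 0.27 of all genes. FST was therefore the member whose difference was read most often above background on both sides.

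The difference in the ligand gene INHBA was then set beside that in its antagonist FST, as a description, since both were chosen for their differences. In the INHBA probe set above background on both arrays, the log2 fold was 1.29 to 1.71 above those of the 3 FST probe sets. With dim signals at the background level, INHBA was above FST in 6 of 9 pairs of probe sets, and the other 3 pairs were those of the dim 204926_at, where the fold is only a lower bound. The log2 fold of INHBB was 0.10 to 0.52 below that of FST in the 3 pairs. The 0.27 SD given above is for single log2 folds, and a difference of 2 folds spreads wider, so no firm order of INHBB and FST is given.

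The other 2 follistatin family members differed little or lay close to the threshold. FSTL3, which like follistatin binds and blocks activins, had 1 probe set, with 925 on the array labelled HCC4006ER and 1108 on the array labelled HCC4006 (log2 fold -0.26). The log2 fold of FST was 1.73 to 2.15 above that of FSTL3 over the 3 probe sets of FST. FSTL1, a secreted glycoprotein that shares the follistatin domain, read 9309 on the array labelled HCC4006ER and 6120 on the array labelled HCC4006 in probe set 208782_at. This 1.52-fold difference (log2 fold 0.61) lay just past the threshold, at rank 907, closer to it than the SD between probe sets. Of the other 2 FSTL1 probe sets, 230744_at lay under background throughout, with 71.6 on the array labelled HCC4006ER and 63.2 on the array labelled HCC4006. Probe set 240891_at read 109 on the array labelled HCC4006ER and 14.3 on the array labelled HCC4006, a difference of at least 1.13-fold.

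**Figure D2:**
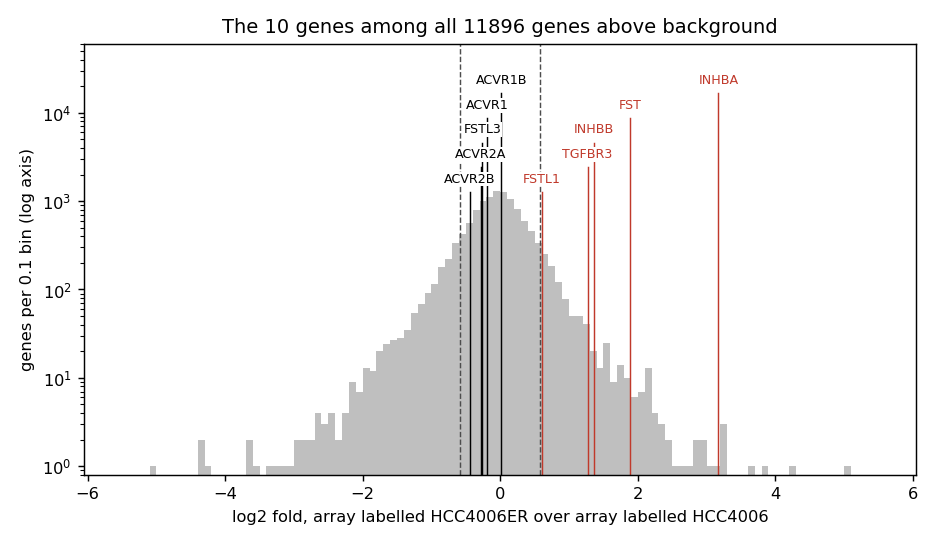
Number of genes per bin of 0.1 of the log2 fold (log axis), array labelled HCC4006ER over array labelled HCC4006, for the 11896 genes above background in grey. Vertical lines mark the 10 genes, red where higher past 1.5-fold, and dashed lines mark 1.5-fold. INHBA stands at 3.17, FST at 1.89, INHBB at 1.36 and TGFBR3 at 1.27, whereas the receptors lie between -0.44 and 0.02.

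The activin receptors ACVR1, ACVR1B, ACVR2A and ACVR2B lay within 1.5-fold on every probe set above background. Among type I receptors, ACVR1B (ALK4), the main type I receptor of activins A and B, had 660 on the array labelled HCC4006ER and 652 on the array labelled HCC4006 in its brightest probe set, a log2 fold of 0.02. A second ACVR1B probe set above background read 160 on the array labelled HCC4006ER and 194 on the array labelled HCC4006 (log2 fold -0.28). The other 4 ACVR1B probe sets lay under background throughout, the brightest of them at 34.4 on the array labelled HCC4006ER and 37.0 on the array labelled HCC4006. ACVR1 (ALK2), a type I receptor best known for BMP signalling, had 1 probe set, with 1360 on the array labelled HCC4006ER and 1554 on the array labelled HCC4006 (log2 fold -0.19).

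Among type II receptors, the 2 probe sets of ACVR2A pointed in opposite directions. Probe set 205327_s_at read 437 on the array labelled HCC4006ER and 532 on the array labelled HCC4006 (log2 fold -0.28), and 228416_at read 272 on the array labelled HCC4006ER and 219 on the array labelled HCC4006 (log2 fold 0.31). The SD of the 2 log2 folds was 0.42, so no direction is given for ACVR2A. ACVR2B, the other type II receptor, had 1 of 3 probe sets above background, with 143 on the array labelled HCC4006ER and 194 on the array labelled HCC4006, a log2 fold of -0.44. The other 2 ACVR2B probe sets lay under background throughout, with 84.1 and 17.5 on the array labelled HCC4006ER and 91.2 and 50.4 on the array labelled HCC4006.

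TGFBR3 (betaglycan) is a co-receptor that presents TGF-β2 to its receptors and, with inhibin bound, takes type II receptors away from activin. Probe set 226625_at read 506 on the array labelled HCC4006ER and 210 on the array labelled HCC4006, a 2.41-fold difference (log2 fold 1.27) at rank 152. Probe set 204731_at read 320 on the array labelled HCC4006ER and 136 on the array labelled HCC4006, a 2.36-fold difference. The 2 log2 folds had an SD of 0.02, the closest match between probe sets among the 4 genes that had more than 1 above background on both arrays. The log2 fold of TGFBR3 was 1.22 to 1.55 above that of ACVR1B and 0.93 to 1.55 above that of ACVR2A over all 4 pairs of probe sets for each.

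Of the 25 probe sets of the 10 genes, 18 were above background, 15 of them on both arrays, and 7 were under it on both. Of the 18, 9 were higher past 1.5-fold, beside 9.25% of all probe sets above background, and 0 were lower, beside 10.1%. The 3 that were above background on the array labelled HCC4006ER alone belonged to INHBA and FSTL1. None was above background on the array labelled HCC4006 alone.

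**Figure D3:**
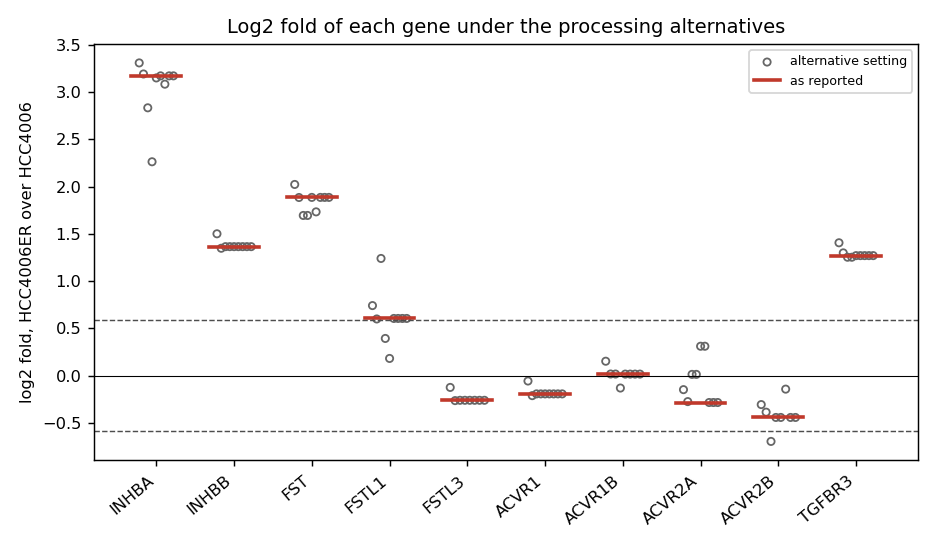
Log2 fold (array labelled HCC4006ER over array labelled HCC4006) of each of the 10 genes, as a red bar for the reported value and open circles for up to 9 processing alternatives. Dashed lines mark 1.5-fold. The circles of INHBA, INHBB, FST and TGFBR3 stay above the upper line, those of FSTL1 lie on both sides of it, and those of ACVR1B and ACVR2A lie on both sides of 0.

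The wider pathway was read from 5 lists of other ligands, receptors, antagonists, transducers and targets, which held 64 genes, 57 of them with a probe set and 38 above background. Of the 38, 6 were higher past 1.5-fold on the array labelled HCC4006ER and 5 were lower, where 7.99% of all genes above background were higher and 11.2% lower. The 38 had a median log2 fold of -0.08 beside -0.04 over all genes above background. With the arrays at a common median the count was 6 higher and 1 lower (JUNB), where 1475 of all 11896 genes were higher and 880 lower, and the medians were 0.05 for the lists and 0.10 for all genes. By brightest probe set, with a dim side at the background level, the lists of ligands and receptors held no gene past 1.5-fold. In the ligand gene GDF11, 1 of 3 probe sets above background was lower past it (log2 fold -0.62). Of 8 other ligands and subunits with a probe set, 3 were above background and lay within 1.5-fold, the inhibin βC subunit INHBC with 553 on the array labelled HCC4006ER and 644 on the array labelled HCC4006. The βE subunit INHBE, at 71.1 on the array labelled HCC4006ER and 26.3 on the array labelled HCC4006, and the ligands NODAL and MSTN (myostatin) were not above background on either array. Of 10 other receptors and co-receptors, 7 were above background. ACVR1C (ALK7), a type I receptor for activin B and Nodal, read 123 on the array labelled HCC4006ER and 58.7 on the array labelled HCC4006, at least 1.28-fold higher. This is a lower bound (measured log2 ratio 1.07), so whether ACVR1C passed 1.5-fold is not known. TGFBR1 and TGFBR2, the receptors of TGF-β itself, had log2 folds of -0.20 and -0.26, with the array labelled HCC4006ER at 1752 and 2518 and the array labelled HCC4006 at 2007 and 3007.

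Of 10 other extracellular antagonists, 3 were above background and GREM1 was higher past 1.5-fold. GREM1 (gremlin), which blocks BMPs, read 1563 on the array labelled HCC4006ER and 622 on the array labelled HCC4006, a 2.51-fold difference, and its second probe set was higher as well (log2 fold 1.51). The BMP antagonist NOG (noggin) had a log2 fold of 0.36. The follistatin-domain genes FSTL4 and FSTL5 were not above background on either array.

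Of 14 transducers and regulators 13 were above background, and 11 of these lay within 1.5-fold. SMAD2 read 1773 on the array labelled HCC4006ER and 1848 on the array labelled HCC4006, with log2 folds of -0.11 to 0.63 over its 5 probe sets above background, 1 of them past 1.5-fold. SMAD4, the shared partner of the receptor-activated SMADs, read 986 on the array labelled HCC4006ER and 960 on the array labelled HCC4006. SMAD3 read 1741 on the array labelled HCC4006ER and 2044 on the array labelled HCC4006 (log2 fold -0.23). Its 4 probe sets above background ran from -0.61 to -0.23, 1 of them lower past 1.5-fold. The inhibitory SMAD7, which is induced by the pathway, had a log2 fold of -0.09. These are mRNA signals and do not measure SMAD phosphorylation. For SMAD2 the study reports a higher basal phosphorylation in HCC4006ER cells. SMURF2, a ubiquitin ligase that acts on SMADs and receptors, was 1.88-fold higher, at 6875 on the array labelled HCC4006ER and 3648 on the array labelled HCC4006, and all 4 of its probe sets were higher past 1.5-fold. SKIL (SnoN), a repressor of SMAD-driven transcription, was 1.52-fold lower, at 1225 on the array labelled HCC4006ER and 1862 on the array labelled HCC4006. With the arrays at a common median this brightest SKIL probe set no longer passed 1.5-fold. Before that scaling, 2 of 3 SKIL probe sets above background were lower past it, with log2 folds of -0.74 to -0.58 over the 3.

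Of 12 targets of activin and TGF-β above background, 4 were higher past 1.5-fold, 4 were lower and 4 lay within it, again where 7.99% of all genes above background were higher and 11.2% lower. With the arrays at a common median 4 were higher and 1, JUNB, was lower. Higher were TAGLN (transgelin, 12.8-fold), FN1 (fibronectin, 1.66-fold, in 5 of 5 probe sets above background), COL4A1 (1.64-fold) and COL1A1 (1.63-fold), all of them also genes of mesenchymal cells and matrix. In COL1A1 2 of 3 probe sets above background had a negative log2 fold, and COL4A1 passed 1.5-fold in 1 of 2. TPM1, a tropomyosin gene counted within 1.5-fold by its brightest probe set, was higher past it in 3 of 5 probe sets above background, with log2 folds of 0.33 to 1.89. Lower were the transcription factor gene JUNB (2.20-fold), CDKN1A, which encodes the cell cycle inhibitor p21 (1.63-fold), THBS1 (1.57-fold) and BHLHE40 (1.52-fold). By brightest probe set, the last 3 no longer passed 1.5-fold with the arrays at a common median. Before that scaling, THBS1 was lower past 1.5-fold in 3 of 5 probe sets above background, with log2 folds of -0.87 to -0.17. BHLHE40 was lower past it in 2 of 2, and CDKN1A and JUNB had 1 probe set each. TGFBI, a matrix protein gene named for its induction by TGF-β, had a log2 fold of -0.31, and CCN2, a secreted matricellular protein gene also induced by TGF-β, 0.14. The median log2 fold of the 12 was -0.09 (0.05 with the arrays at a common median).

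**Figure D4:**
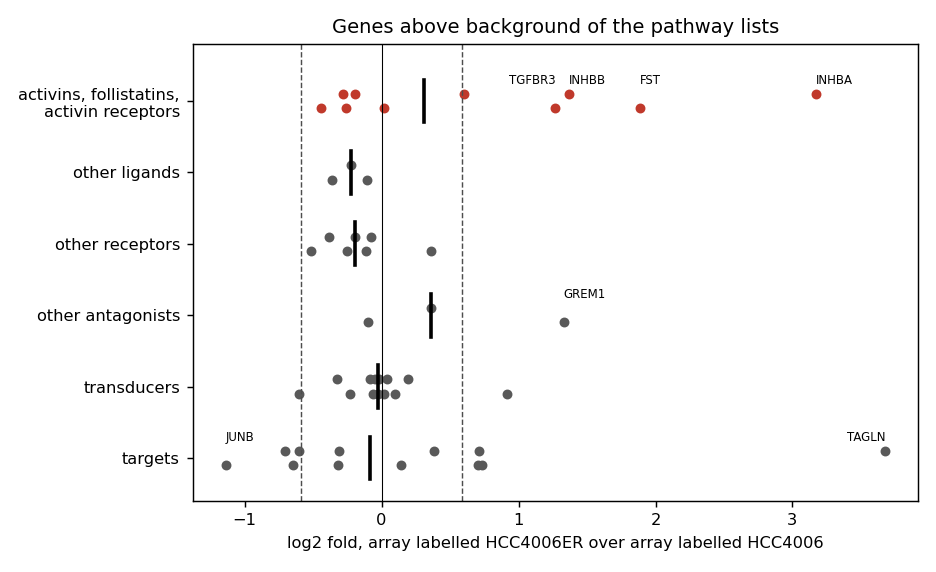
Log2 fold (array labelled HCC4006ER over array labelled HCC4006) of the genes above background in the 10 genes described here (red) and in 5 lists of the wider pathway (grey). Each point is 1 gene, black bars are medians, dashed lines mark 1.5-fold, and genes at or past 2-fold are named. The median of the 10 genes is at 0.31 and those of the transducers and targets are at -0.03 and -0.09 (0.11 and 0.05 with the arrays at a common median).

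Fibroblasts express INHBA, FST, FSTL1 and GREM1, so their markers were read on the same arrays. Of 12 fibroblast markers, FBLN1 was above background on the array labelled HCC4006ER, and FBLN1 and THY1 were above it on the array labelled HCC4006. The other 10, among them DCN, LUM, COL3A1, COL1A2, PDGFRA and PDGFRB, were under background on both. DCN (88.9 on the array labelled HCC4006ER) and COL1A2 (96.0 on the array labelled HCC4006) lay just under the levels of 91.6 and 96.2. The summed signal of the list, which includes signals under background, was 522 on the array labelled HCC4006ER and 836 on the array labelled HCC4006. The collagen gene COL1A1, counted among the targets, read 965 on the array labelled HCC4006ER and 591 on the array labelled HCC4006. FBLN1 read 213 on the array labelled HCC4006ER and 300 on the array labelled HCC4006. Of 8 blood cell markers with a probe set, 2 were above background on the array labelled HCC4006ER and 3 on the array labelled HCC4006, with PTPRC under it on both. CSF1R read 290 on the array labelled HCC4006ER and 317 on the array labelled HCC4006, and HBB read 155 and 180. CD3E was above background on the array labelled HCC4006 alone, at 98.0. The CSF1R and HBB signals exceed the 138 of INHBA on the array labelled HCC4006, and whether they come from transcript was not tested. Of 8 endothelial markers, PECAM1 alone was above background, at 229 on the array labelled HCC4006ER and 244 on the array labelled HCC4006.

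The genes nearest to INHBA and FST in log2 signal over the 2 arrays were found by Euclidean distance, a measure that also depends on how well each probe set hybridizes. For INHBA they were SHISA9 (distance 0.42, 6.47-fold higher on the array labelled HCC4006ER), CADM1 (0.50, 7.16-fold) and EPSTI1 (0.55, 5.68-fold). For FST they were LAYN (0.13, 3.46-fold), DIO2 (0.17, 3.66-fold) and SCD5 (0.22, 2.99-fold). With 2 arrays this likeness rests on 2 values per gene.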

How the data were processed

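The authors deposited 1 MAS5 signal intensity per probe set on a linear scale, without detection calls, for 54675 probe sets on each of 2 arrays (the submitters' processing notes also name GCOS 1.4), scaled to a trimmed mean (2% left out at each end) of 500.1 on both. MAS5 leaves dim signals noisy, so ratios of dim probe sets are unreliable. Gene names came from the platform annotation, in which 41097 probe sets had 1 symbol, 1801 had several and 11777 were not listed, and only the first were used. All 10 genes matched a RefSeq table of GRCh38.p14 by gene identifier. Each gene was read from the probe set whose mean log2 signal was highest, and log2 folds are of the array labelled HCC4006ER over the array labelled HCC4006. The 1.5-fold threshold is that of the study's methods. The genes, the pathway lists and the rule for named genes (the 10 genes, pathway genes past 1.5-fold up to 4 a list, SMAD2, SMAD3, SMAD4, SMAD7, the 3 nearest genes and the markers) were chosen with earlier results of these data known, and other list members were named after their values were seen. No p-value was computed. The gene step was tested on simulated data. Protein sequences were not used here. The work used Python 3.11.15, numpy 2.4.6, pandas 2.3.3 and matplotlib 3.10.9.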

Additional observations from a re-analysis of the deposited data

How the results depend on the processing

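With 1 array per cell line no setting could leave out a replicate, and no paired analysis was possible because each cell line had 1 array. Alternatives were a common median, quantile-normalized arrays, 4 other ways to choose probe sets, 2 other background levels, the measured ratio and a 2-fold threshold. INHBA, INHBB, FST and TGFBR3 stayed higher past the threshold under all 10. FSTL1 did not pass with the mean over probe sets above background, with the probe set of largest absolute log2 fold (0.18, from a dim probe set) and at 2-fold. The median log2 fold of the 10 genes was 0.63 with the mean over all probe sets, 0.79 with the probe set of largest absolute fold, where ACVR1B and ACVR2B had no fold, and 0.61 without probe sets marked _s_at or _x_at, where FSTL3 had none. With the mean over all probe sets, which also counts dim ones, 1 of the 10 genes, ACVR2B, was lower past 1.5-fold. Of 87 log2 folds of single genes recomputed, 78 moved by less than the 0.27 SD between probe sets, 9 moved by more and 0 of those past 1.5-fold changed sign. Much of this count was fixed beforehand, so no stability is read from it. The measured ratio and the median receptor background leave the folds of genes above background on both arrays unchanged. A common median moves each by only 0.14, and INHBB, FSTL3 and ACVR1 have 1 probe set to choose from. INHBA ran from 2.26 to 3.31. In the pathway lists the genes lower past 1.5-fold numbered 1 at a common median, 8 with the mean over all probe sets, 3 without probe sets marked _s_at or _x_at, 9 with the median receptor signal as background, 12 with the measured ratio and 1 at 2-fold, where 2 were higher. At a common median SKIL, CDKN1A, THBS1 and BHLHE40 no longer passed, since every log2 fold moved up by 0.14. The cause of the other shifts was not tested.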
